A study of Homo sapiens with 3 samples.

Results

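The genes described here are 10 chaperones and co-chaperones of the endoplasmic reticulum (ER): HSPA5, HSP90B1, HYOU1, DNAJB9, DNAJB11, DNAJC3, PDIA4, SDF2L1, MANF and CRELD2. They were taken from the 18132 genes that could be named on the array, and every probe set annotated to 1 of these symbols alone was used, which gave 36 probe sets. The genes were picked with their values on these arrays already known, so their differences between the arrays are given as a description and no test was made. The study profiled KYSE150, an established cell line from a human squamous carcinoma of the oesophagus, 48 h after it had been transfected with a pcDNA3.1 plasmid for LOXL2 delta72, with a pcDNA3.1 plasmid for LOXL2 WT, or with vector alone as the control. LOXL2 is lysyl oxidase like 2, a secreted copper-dependent amine oxidase. The labels name delta72 without saying what it lacks. Each of the 3 conditions was 1 array, so there is no spread between replicates, no p-value can be given, and a gene called higher or lower is so on these 3 arrays only. Both LOXL2 groups were compared with the same control array.

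Proteins that enter the secretory pathway fold in the lumen of the ER. The ER HSP70 protein BiP, encoded by HSPA5, binds unfolded chains in a cycle driven by ATP. J-domain proteins deliver clients to it, nucleotide exchange factors reset it, and HSP90-type chaperones and disulphide isomerases take the chains further. When unfolded protein builds up, the sensors ATF6, IRE1 and PERK start the unfolded protein response, in which ATF6 and XBP1 bind ER stress elements in the promoters of chaperone genes.

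The promoters of 5 of the 10 genes held an exact copy of an ER stress element, while DNAJB9, DNAJB11, DNAJC3, PDIA4 and MANF held none. These stretches are shown as a description, since genes and motifs were both chosen with earlier results of these data known. The windows searched ran from 250 bases before to 50 after each gene's start site (RefSeq, GRCh38.p14), and all 10 genes had at least 1 window, PDIA4 having 2. The element ERSE (CCAAT, 9 bases of any kind, then CCACG, on either strand) was found in 3 of the 10 genes, against 27 of all 35116 windows (0.0769%). The element ERSE-II (ATTGG, 1 base of any kind, then CCACG, on either strand) was found in 2 of the 10, against 19 of all windows (0.0541%). Capitals mark the fixed letters of each match, and every stretch is printed 5′ to 3′ on the gene's own strand with 20 bases on both sides of the outermost matches.
HSPA5, chr9:125241371-125241429, minus strand: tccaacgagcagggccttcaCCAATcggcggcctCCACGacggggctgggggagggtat
HSP90B1, chr12:103930196-103930359, plus strand: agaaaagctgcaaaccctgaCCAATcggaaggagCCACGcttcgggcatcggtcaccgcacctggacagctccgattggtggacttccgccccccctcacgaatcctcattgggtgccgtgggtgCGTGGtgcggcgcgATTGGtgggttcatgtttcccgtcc
CRELD2, chr22:49918534-49918592, plus strand: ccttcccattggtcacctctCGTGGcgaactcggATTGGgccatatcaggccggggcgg
HYOU1, chr11:119057254-119057410, minus strand: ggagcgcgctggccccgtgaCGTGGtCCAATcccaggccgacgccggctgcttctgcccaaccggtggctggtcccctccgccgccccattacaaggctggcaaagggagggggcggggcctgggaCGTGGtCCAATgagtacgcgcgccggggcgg
SDF2L1, chr22:21642094-21642144, plus strand: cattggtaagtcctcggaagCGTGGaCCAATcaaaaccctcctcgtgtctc

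The single HSPA5 match lay in the sense direction from base -66 to -48, counted from the start site. HSP90B1 held a sense match from -194 to -176 and an antisense match from -89 to -71, and CRELD2 an antisense match from -80 to -62. HYOU1 held antisense ERSE-II matches from -185 to -175 and from -79 to -69. The first of these overlapped a UPRE (TGACGTGG), an element bound by XBP1, at -188 to -181, a motif found in 256 windows (0.729%). SDF2L1 held 1 antisense ERSE-II from -188 to -178. An amino acid response element (TGATGNAAT, 0.991% of windows) and a heat shock element (GAA, TTC and GAA, each 2 bases apart, 0.490% of windows) were found in 0 of the 10 genes. When 1 mismatch was allowed at the fixed letters, a search added after the exact matches had been seen, ERSE was found in 6 of the 10 genes (1.55% of all windows), with DNAJC3, HYOU1 and SDF2L1 added, and ERSE-II in 4 (1.23%), with MANF and HSPA5 added. A match describes the letters of a window and does not show that a factor binds there. ERSE was originally defined on chaperone promoters, those of HSPA5 and HSP90B1 among them, and ERSE-II on that of HERPUD1, so the matches in these genes are known features and no new observation.

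**Figure D1:**
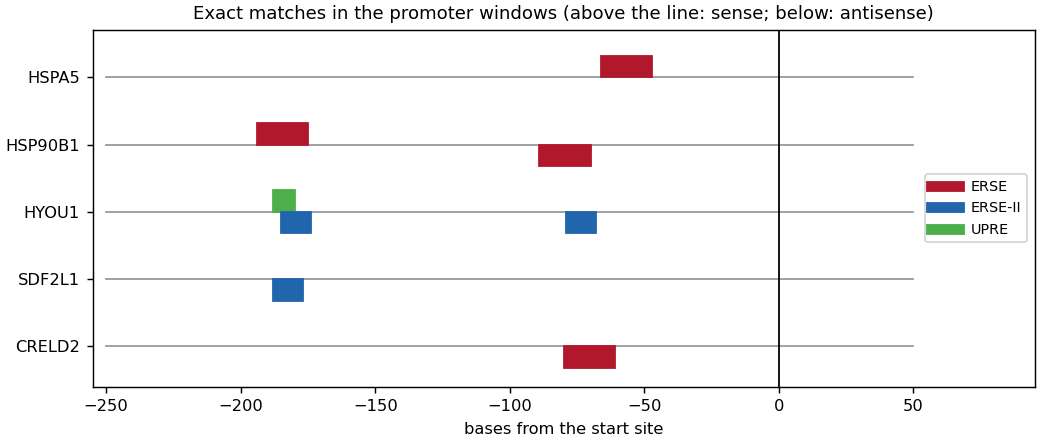
Exact matches of ERSE, ERSE-II and UPRE in the promoter windows of the 5 genes that held ERSE or ERSE-II; the horizontal axis is the distance in bases from the start site. Each match lies between -194 and -48, with the HSPA5 match closest to the start site and the UPRE of HYOU1 overlapping its upstream ERSE-II.

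LOXL2 itself was read first. The brightest LOXL2 probe set read log2 14.06 with delta72 and 14.05 with WT, against 7.46 for the vector control, and 1 of its 4 probe sets was lower with both forms, at 8.66 with delta72 and 8.32 with WT, against 8.81. The other 3 probe sets were nearly level between delta72 and WT, so LOXL2 separates the arrays of both forms from the control array but does not check which of them is delta72. Of 10 squamous epithelial markers, 7 were measured and all 7 passed the filter on dim genes (mean log2 intensity of at least 5.27), among them KRT5 at 11.27 (delta72), 11.52 (WT) and 11.62 (control), whereas KRT6A, KRT17 and TP63 were not analysed here. None of 5 fibroblast markers passed the filter (0 of 5), 2 of 4 measured leukocyte markers passed (CD3E and CD68, with PTPRC at 3.08 with delta72, 3.05 with WT and 2.83 on the control array), and so did 3 of 4 endothelial markers, at no more than log2 6.05. Summed over the measured squamous markers, the linear intensity was 7533 with delta72, 8091 with WT and 8685 for the vector control, and over the leukocyte markers 462, 407 and 565 in the same order, with most of it from CD68, which other cells make as well. The part of these differences in the results was not tested. The 3′ minus 5′ difference of the ACTB control probe sets was 1.32 with delta72, 1.46 with WT and 1.26 on the control array. That of the GAPDH control probe sets was level, at 0.002 with delta72, 0.003 with WT and -0.006 on the control array. Both yardsticks of technical error used here come from the arrays themselves. The standard deviation (SD) between probe sets of 1 gene, pooled over 7163 genes, was log2 0.145 between delta72 and control, 0.170 between WT and control and 0.113 between the forms compared directly. For any of 23 background probe sets the largest difference was 0.173, 0.285 and 0.152 in these comparisons. Neither holds any error between cultures.

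On the probe set that represents it, each of the 10 genes read higher with either form of LOXL2 than with vector alone, and higher with delta72 than with WT. An array reads RNA of the whole culture, so more RNA per cell and more cells with raised RNA cannot be told apart. Each gene is represented by its probe set of highest mean, and all 10 passed the filter, as did 12232 genes in all. With delta72 the median difference from control was 0.79 (1.73-fold), with a range of 0.53 to 1.19, and 8 of 10 genes were at least 1.5-fold higher, against 1.28% of all genes. With WT the median was 0.56 (1.48-fold), with a range of 0.28 to 0.93, and 5 of 10 reached 1.5-fold, against 1.85%. This WT count was 3 after a shift of the arrays to a common median or a lowess correction, where HYOU1 and DNAJB9 came under 1.5-fold, and 2 with the median over each gene's probe sets, where HYOU1, DNAJB9 and DNAJC3 did. At 2-fold the counts were 1 of 10 with delta72, against 0.123% of all genes, and 0 of 10 with WT, against 0.18%. Of all genes, 49.7% were higher than control by any amount with delta72 and 48% with WT. The median over all genes was 0.00 for delta72 and -0.01 for WT. Because the genes were chosen from these contrasts, nothing is read from the excess over all genes.

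On the probe set of highest mean the delta72 array read highest, the WT array between and the control array lowest in each of the 10 genes. The share of all genes in this order was not computed, so nothing is read from it. The technical yardsticks give only a scale for these values, since the genes were picked with the differences known. HSP90B1, at 0.2833 with WT on its probe set of highest mean, was just under the largest background difference of 0.285 for that comparison. With the median over probe sets HYOU1, at 0.15 with delta72 and -0.04 with WT, and CRELD2, at 0.21 with WT, were under the largest background differences of 0.173 and 0.285. Over all 36 probe sets, 34 were higher with delta72 and 33 with WT than on the control array. By gene, 49.7% and 48% of all genes were higher, and the share over all probe sets was not computed. HYOU1, HSP90B1 and HSPA5 hold 9, 7 and 6 of the 36, and probe sets of the same gene are not separate observations. The 6 dim probe sets below the filter differed by -0.18 to 0.24 with delta72 and by -0.09 to 0.24 with WT.

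**Figure D2:**
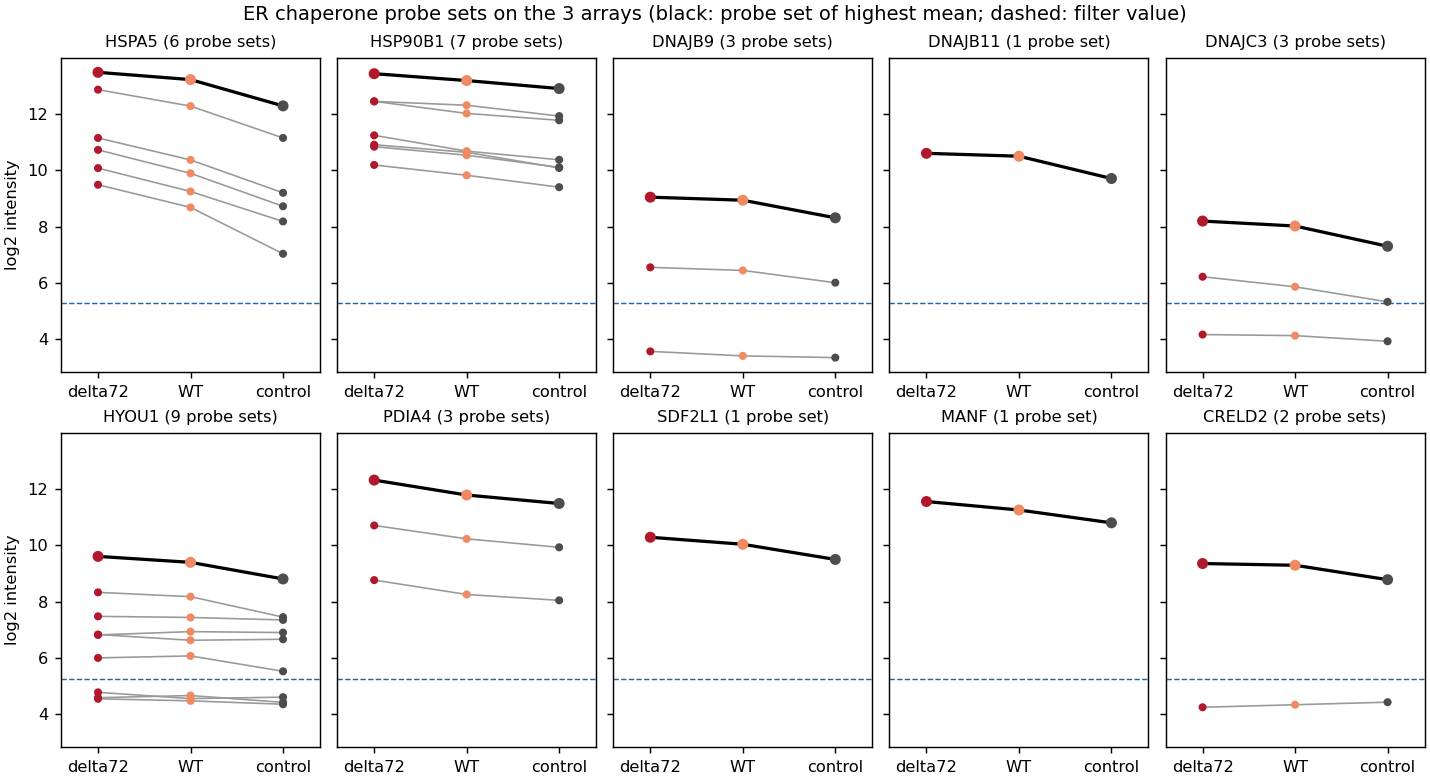
Log2 intensity (vertical axis) of each of the 36 probe sets of the 10 genes on the LOXL2 delta72, LOXL2 WT and control arrays; lines join 1 probe set, black marks the probe set of highest mean and the dashed line is the filter value of 5.27. In every panel the black line is highest on the delta72 array and lowest on the control array.

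HSPA5, the ER HSP70 itself, stood furthest above control of the 10 genes with either form. Its brightest probe set read 13.47 with delta72, 13.22 with WT and 12.28 on the control array. This is 2.28-fold above control with delta72 (1.19, SD 0.41 over 6 probe sets), which ranked 11th of the 12232 genes, and 1.91-fold with WT (0.93, SD 0.24), which ranked 31st. All 6 probe sets kept the order delta72, WT, control.

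The size of the HSPA5 difference depended on the probe set. The dimmest of them on the control array read 9.49 with delta72, 8.68 with WT and 7.04 on the control array, a difference from control of 2.45 with delta72 and 1.64 with WT. The next brightest after it, at 8.18 on the control array, read 10.08 with delta72 and 9.25 with WT. The brightest probe set thus gave the smallest of the 6 differences, and the dimmest the largest, for both forms. With the median over the 6 probe sets in each array the delta72 difference was 1.97, and with probe sets of the types _s_at and _x_at, which may match several transcripts, left out it was 1.95. The brightest probe set lay near the upper end of the delta72 array, where the highest value of all was 14.55.

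HSP90B1 encodes the HSP90 of the ER, which finishes the folding of a restricted set of clients such as integrins. Its brightest probe set read 13.43 with delta72, 13.18 with WT and 12.90 on the control array, so the delta72 array was highest by a small step. The difference from control was 0.53 with delta72 (1.44-fold, SD 0.14 over 7 probe sets) and 0.28 with WT (1.22-fold, SD 0.11). All 7 probe sets were higher with both forms, between 0.52 and 0.87 with delta72 and between 0.24 and 0.55 with WT. As with HSPA5, the brightest probe set lay at the low end, and without _s_at and _x_at probe sets the delta72 difference was 0.87.

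HYOU1 encodes a large HSP70-like protein that acts as a nucleotide exchange factor of BiP. Its brightest probe set read 9.61 with delta72, 9.40 with WT and 8.81 on the control array, a difference of 0.80 with delta72 (1.74-fold, SD 0.39 over 6 probe sets above the filter) and of 0.59 with WT (1.5-fold, SD 0.33). The 9 HYOU1 probe sets did not give 1 answer. A second probe set was similar, at 8.33 with delta72, 8.18 with WT and 7.45 on the control array, whereas its companion of the _x_at type read 7.48 with delta72, 7.44 with WT and 7.35 on the control array. Over all 9, the differences ran from -0.08 to 0.88 with delta72 and from -0.05 to 0.72 with WT, and all 3 probe sets of the _x_at type stayed at or below 0.17 with delta72. With the median over the probe sets of each array the difference was 0.15 with delta72, and with WT it turned to -0.04. Which probe sets read the HYOU1 transcript best is not known from the sources used here.

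The 3 J-domain proteins were higher with both forms by similar amounts. DNAJB11, a soluble co-chaperone that hands nascent chains to BiP, read 10.60 with delta72, 10.50 with WT and 9.71 on the control array on its single probe set. This is 1.86-fold above control with delta72 (0.89) and 1.73-fold with WT (0.79), so the arrays of both forms lay close together and the control array apart. DNAJB9, which binds misfolded proteins and in mammalian cells holds the sensor IRE1 in check through BiP, read 9.05 with delta72, 8.94 with WT and 8.31 on the control array. Its difference was 0.73 with delta72 (1.66-fold, SD 0.13 over 2 probe sets) and 0.62 with WT (1.54-fold, SD 0.13). A further, dim probe set of DNAJB9 read 3.58 with delta72, 3.42 with WT and 3.35 on the control array, under the filter value.

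DNAJC3, a BiP co-chaperone also known as an inhibitor of the PERK kinase, read 8.20 with delta72, 8.02 with WT and 7.30 on the control array. The difference was 0.89 with delta72 (1.86-fold) and 0.72 with WT (1.64-fold). Its other probe set above the filter read 6.22 with delta72, 5.87 with WT and 5.33 on the control array, a difference of 0.89 with delta72 and of 0.53 with WT. The DNAJC3 probe sets thus gave the same delta72 difference (SD 0.0019 over 2) and a less even WT difference (SD 0.13).

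PDIA4, a protein disulphide isomerase with several thioredoxin-like domains, had the largest difference between the forms among the probe sets of highest mean, though not with the median over probe sets or without the _s_at and _x_at types. It read 12.31 with delta72, 11.78 with WT and 11.48 on the control array. The delta72 difference from control was 0.83 (1.78-fold, SD 0.06 over 3 probe sets), whereas the WT difference was 0.30 (1.23-fold, SD 0.05). The other 2 probe sets told the same, at 10.71 and 8.77 with delta72, 10.23 and 8.26 with WT, and 9.93 and 8.05 on the control array.

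SDF2L1, a partner of DNAJB11 in the BiP cycle, read 10.29 with delta72, 10.04 with WT and 9.50 on the control array on 1 probe set. It was 1.73-fold above control with delta72 (0.79) and 1.45-fold with WT (0.54). MANF, a small protein that binds the nucleotide-binding domain of BiP and can be secreted, read 11.55 with delta72, 11.25 with WT and 10.80 on the control array, also on 1 probe set. Its difference was 0.75 with delta72 (1.69-fold) and 0.46 with WT (1.37-fold). Both genes had the WT array between the other arrays, nearer to delta72 than to control.

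CRELD2, an ER-resident and secreted protein rich in cysteines, read 9.35 with delta72, 9.29 with WT and 8.78 on the control array. The difference was 0.57 with delta72 (1.49-fold) and 0.51 with WT (1.42-fold), so the LOXL2 arrays were nearly level. A second probe set, below the filter, read 4.26 with delta72, 4.35 with WT and 4.44 on the control array, the opposite order. With the median over both probe sets of each array, CRELD2 differed by 0.20 with delta72 and 0.21 with WT.

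**Figure D3:**
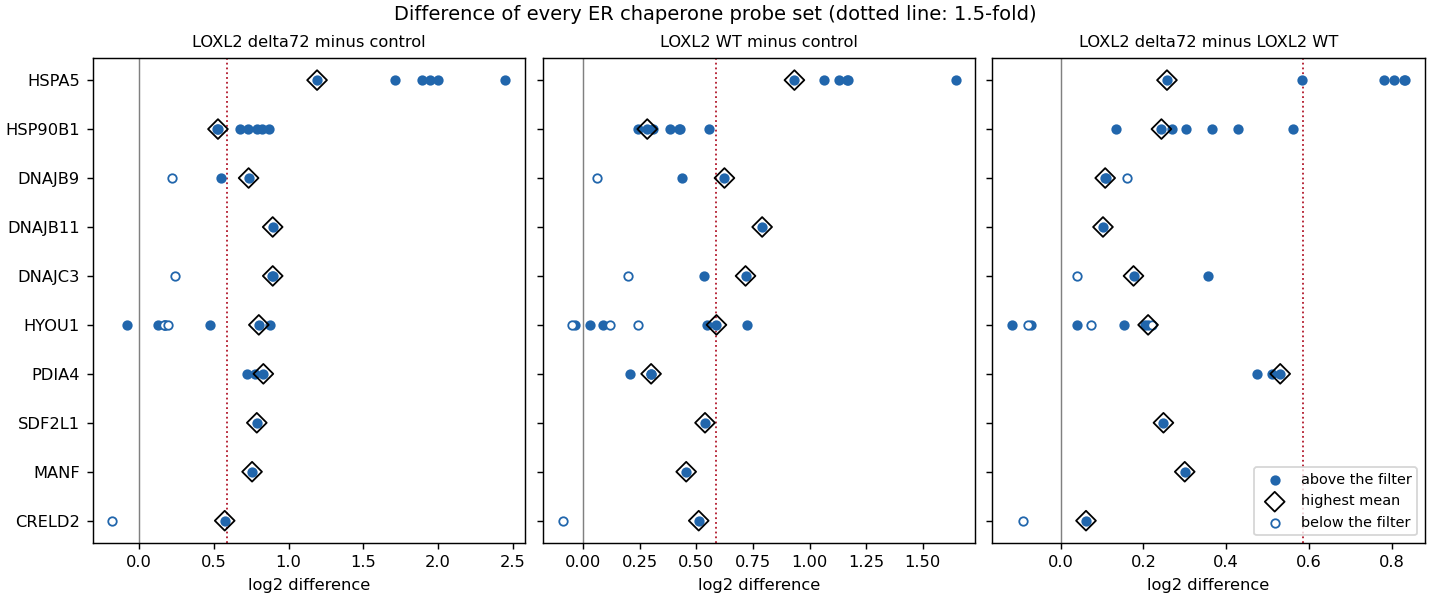
Log2 difference (horizontal axis) of each probe set of the 10 genes with panels for delta72 and WT, each minus control, and for delta72 minus WT; filled points lie above the filter, open points below it, and diamonds mark the probe set of highest mean. HSPA5 spans 1.19 to 2.45 with delta72, and the HYOU1 points fall on both sides of 0.

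Delta72 was set against WT directly, a comparison that does not use the control array. All 10 genes were higher with delta72, against 50.4% of all genes, with a median of 0.23 (1.17-fold) against 0.00 over all genes. The genes were picked with the values of both arrays known, so nothing is read from this excess either. None of the 10 reached 1.5-fold (0 of 10), and 0.18% of all genes did, while with the median over probe sets HSPA5 did. On the probe sets of highest mean PDIA4 led at 0.53 (1.44-fold, SD 0.03 over 3 probe sets, 34th of 12232 genes), followed by MANF at 0.30 (1.23-fold), HSPA5 at 0.26 (SD 0.23 over 6 probe sets), SDF2L1 at 0.25, HSP90B1 at 0.24 (SD 0.14 over 7) and HYOU1 at 0.21. DNAJC3 was at 0.18. DNAJB9 at 0.11, DNAJB11 at 0.10 and CRELD2 at 0.06 stayed within the pooled probe SD of 0.113.

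This order depended on the probe set, since 4 of the 6 HSPA5 probe sets differed by 0.78 to 0.83 and its brightest by 0.26. With the median over probe sets HSPA5 led at 0.81, followed by HSP90B1 at 0.56 and PDIA4 at 0.47, and CRELD2 was at -0.01, on the other side of 0. Without _s_at and _x_at probe sets the order at the top was the same, with HSPA5 at 0.78, HSP90B1 at 0.56 and PDIA4 at 0.53.

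**Figure D4:**
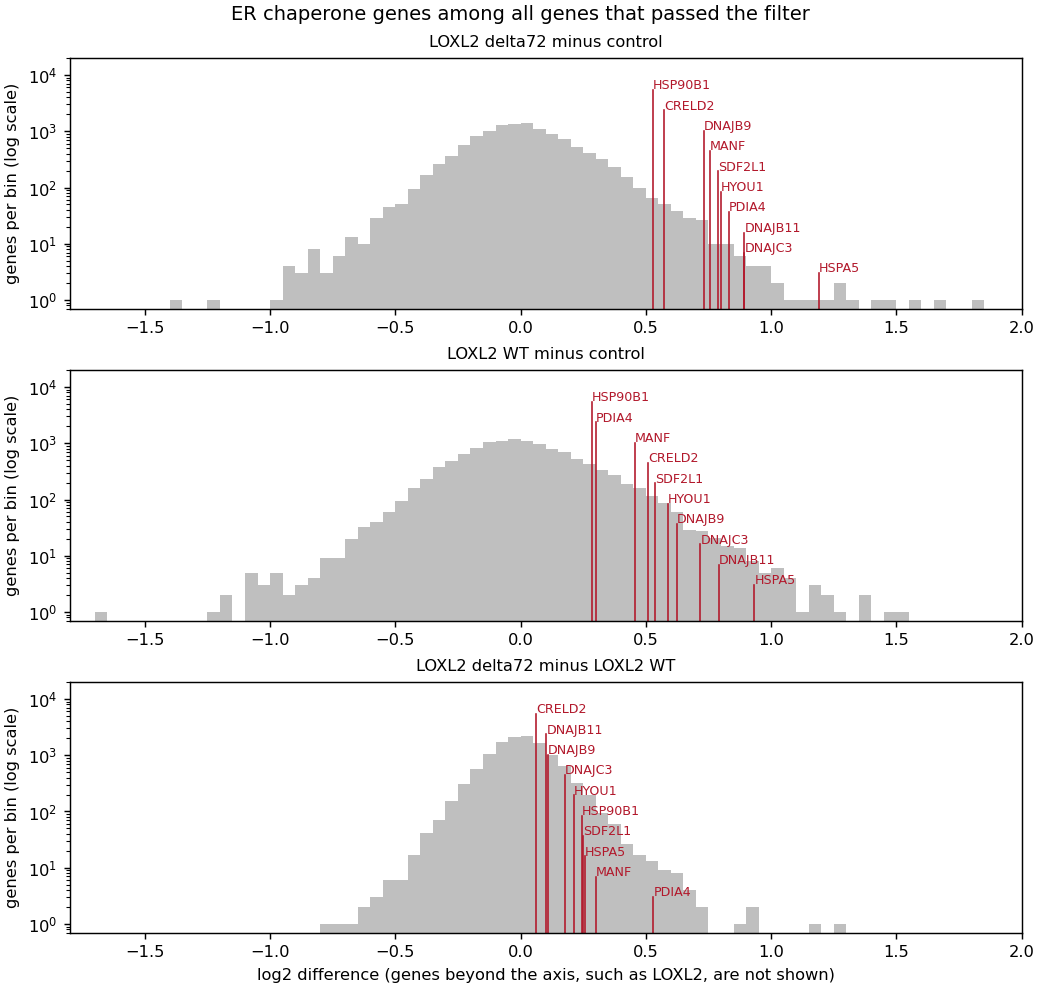
Number of genes per bin of log2 difference (grey, logarithmic vertical axis) among the 12232 genes that passed the filter, with red lines at the 10 ER chaperone genes, whose heights carry no value. The 10 genes lie between 0.53 and 1.19 for delta72 minus control, between 0.28 and 0.93 for WT minus control, and in the comparison of the forms between 0.06 and 0.53.

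Relatives of the 10 genes that act elsewhere, or that belong to the same family, were read for comparison. The ER proteins are related to HSPA8 of the cytosol and HSPA9 of mitochondria (for HSPA5), to HSP90AA1 and HSP90AB1 of the cytosol and TRAP1 of mitochondria (for HSP90B1), and to HSPA4 and HSPH1 of the cytosol (for HYOU1). Of 14 such relatives, 13 passed the filter, and 0 of these 13 were at least 1.5-fold different from control with either form. Their median was 0.15 with delta72 and 0.01 with WT. HSPA8 read 12.92 with delta72, 13.08 with WT and 12.95 on the control array, and HSP90AB1 read 12.08 with delta72, 12.15 with WT and 12.20 on the control array.

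HSPH1, at 10.94 with delta72, 11.11 with WT and 10.63 on the control array, had the largest WT difference among them, at 0.49. DNAJB1, the stress-inducible cytosolic J-domain protein, was at 0.33 with delta72 and 0.37 with WT. SDF2, the constitutive relative of SDF2L1, was at -0.02 with delta72 and -0.04 with WT, and CRELD1, the membrane-bound relative of CRELD2, at -0.14 with delta72 and -0.25 with WT. CDNF, the relative of MANF, did not pass the filter. Among the disulphide isomerases, P4HB was at 0.31 with delta72 (SD 0.04 over 6 probe sets) and 0.01 with WT, and PDIA3 at 0.23 with delta72 and -0.38 with WT, where its 2 probe sets disagreed (SD 0.47). PDIA4, P4HB and PDIA3 thus all read higher with delta72 than with WT, by 0.53, 0.30 and 0.61, the last with an SD of 0.32 over 2 probe sets.

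Other genes of ER protein folding had smaller median differences from control than the 10 chaperones. Since the 10 were picked with their values known, nothing is read from that gap. Of 15 oxidative folding genes, 11 were higher with delta72 (median 0.12) and 7 with WT (median -0.02), and 0 reached 1.5-fold with either form. ERP44, which retains folding intermediates, was at 0.38 with delta72 and 0.33 with WT. ERO1A, the oxidase that recharges disulphide isomerases, was at 0.32 with delta72 and -0.39 with WT, and TXNDC12 was at -0.41 with delta72 and -0.40 with WT. In the lectin cycle, in which calnexin holds glycoproteins until they are folded, 5 of 7 genes were higher with delta72 (median 0.12) and 4 of 7 with WT (median 0.07). CANX, the calnexin gene, was at 0.46 with delta72 and 0.38 with WT. UGGT1, the glucosyltransferase that tests folding, was at 0.38 with delta72 and 0.20 with WT, and MOGS, the first glucosidase, at -0.37 with delta72 and -0.25 with WT.

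Of 20 further BiP partners and foldases, 16 were higher with delta72 (median 0.17) and 11 with WT (median 0.15). DNAJC1, a membrane J-domain protein of the ER, was the 1 member at least 1.5-fold higher with delta72, at 0.65, and was at 0.53 with WT. DNAJC25 was at 0.51 with delta72 and 0.42 with WT, and FICD, the enzyme that AMPylates BiP, at 0.43 with delta72 and 0.51 with WT. Of 16 translocon and signal peptidase genes, 15 were higher with delta72 (median 0.21) and 11 with WT (median 0.14). In this list SEC11C, a catalytic subunit of signal peptidase, was at 0.83 with delta72 and 0.74 with WT, and SRPRB, a subunit of the signal recognition particle receptor, at 0.72 with delta72 and 0.69 with WT. The 3 SRPRB probe sets above the filter disagreed in size (SD 0.29 with delta72 and 0.32 with WT).

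The list of ER degradation factors and stress sensors had 13 of 18 genes higher with delta72 (median 0.08) and 10 of 18 with WT (median 0.12). HERPUD1, a membrane protein of ER-associated degradation (ERAD), was at 1.45 with delta72 and 0.88 with WT, SELENOS at 0.76 with delta72 and 0.63 with WT, and DERL2 at 0.57 with delta72 and 0.52 with WT. The 2 SELENOS probe sets above the filter disagreed in size (SD 0.25 with delta72 and 0.33 with WT). Among the integrated stress targets 10 of 16 were higher with delta72 (median 0.16) and 9 with WT (median 0.10). DDIT3, the transcription factor CHOP, was at 1.65 with delta72 and 1.03 with WT, ATF3 at 0.69 with delta72 and 0.47 with WT, and PPP1R15A, which helps restore translation, at 0.64 with delta72 and 0.29 with WT. DDIT4, an inhibitor of mTORC1 signalling, was at -0.17 with delta72 and -0.66 with WT, the 1 gene of this list at least 1.5-fold lower. The amino acid genes PHGDH, PSAT1, ASNS and SLC7A11, named after their values were seen, were also lower with both forms, by differences of -0.41 to -0.24 with delta72 and -0.52 to -0.38 with WT. The cytosolic heat shock list had 12 of 16 genes higher with each form, with medians of 0.23 for delta72 and 0.30 for WT. HSPA6 was at 1.84 with delta72 and 1.09 with WT, HSPA1B at 0.68 with delta72 and 0.73 with WT, and CHORDC1 at 0.46 with delta72 and 0.69 with WT. The HSPA6 value rested on 1 probe set above the filter. That probe set read 7.35 with delta72, 6.60 with WT and 5.51 on the control array, near the filter value of 5.27. Of 10 mitochondrial chaperones, 7 were higher with delta72 and 5 with WT, with medians of 0.04 for both, and 0 reached 1.5-fold.

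Between the forms, several of these lists were also mostly higher with delta72. Among the integrated stress targets 15 of 16 were (median 0.19), close to the 0.23 of the 10 chaperones. DDIT3, at 0.62, was the 1 of them at least 1.5-fold higher, and DDIT4 was at 0.49. Of the oxidative folding genes 12 of 15 were higher with delta72 than with WT (median 0.12). ERO1A at 0.71 and PDIA3 at 0.61 (SD 0.32 over 2 probe sets) reached 1.5-fold, which none of the 10 chaperones did on the probe sets of highest mean. The lectin cycle had 6 of 7 higher (median 0.09), with GANAB, a glucosidase II subunit, at 0.30. The translocon list had 13 of 16 higher (median 0.05), the further BiP partners 14 of 20 (median 0.06) and the degradation factors and sensors 11 of 18 (median 0.04), with HERPUD1 at 0.57. Of the mitochondrial chaperones 5 of 10 were higher (median -0.01). The relatives (5 of 13, median -0.05) and the cytosolic heat shock genes (4 of 16, median -0.07) were mostly lower with delta72, although HSPA6 was at 0.75. Both lists hold HSPA8, HSPA4, HSPH1, HSP90AA1, HSP90AB1 and DNAJB1, all lower with delta72 than with WT, so their counts are not separate. Other relatives are also in the oxidative folding list (P4HB, PDIA3), the mitochondrial list (HSPA9, TRAP1) or that of further BiP partners (SDF2, CRELD1). No test of the difference between lists was made.

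**Figure D5:**
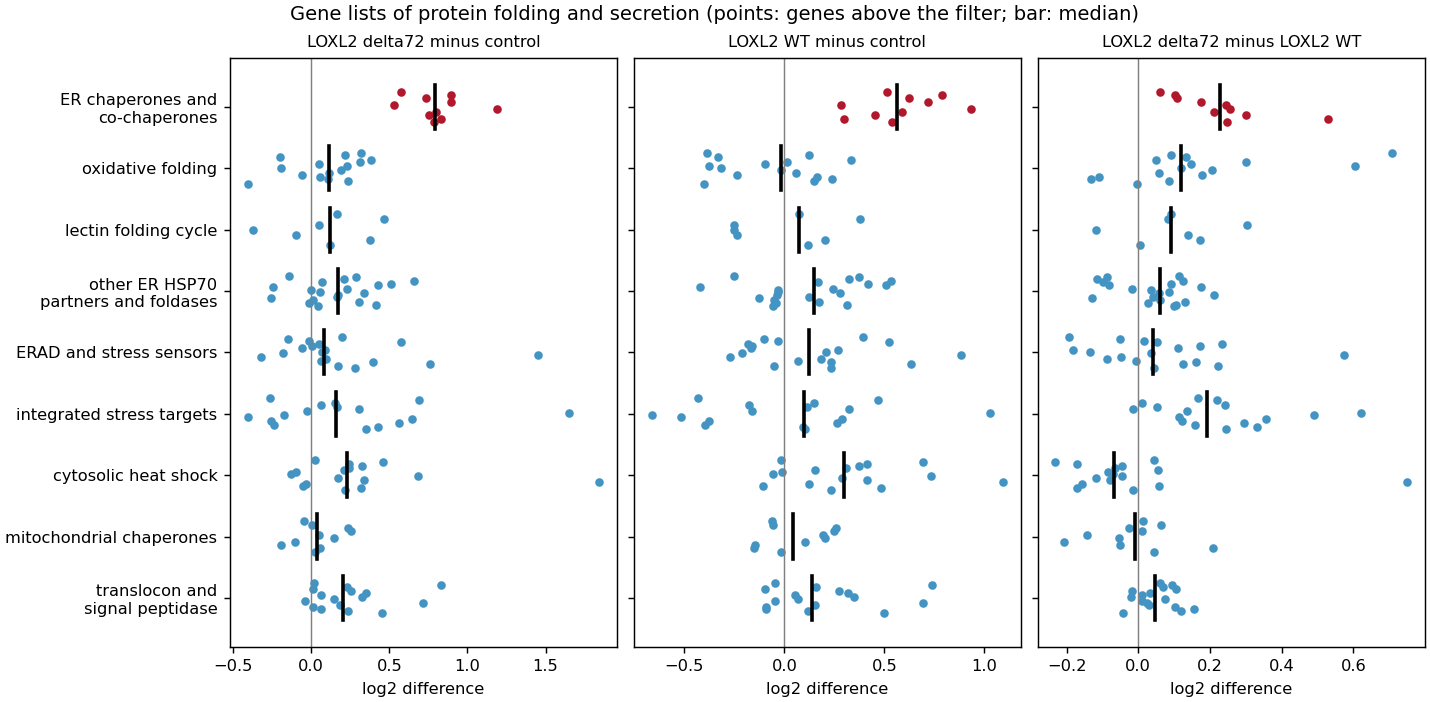
Log2 difference (horizontal axis) of every gene above the filter in the 10 ER chaperones and co-chaperones (red) and in 8 other gene lists (blue), with the median as a black bar and panels for delta72 and WT, each minus control, and for both forms compared directly. The red median is 0.79, 0.56 and 0.23 in these comparisons, and in the last of them the integrated stress median is 0.19 and the cytosolic heat shock median -0.07.

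The promoter elements shown above were also used to look beyond the 10 genes. Of 25 genes with an exact ERSE, 16 passed the filter, and 13 of these are not among the 10 chaperones. With delta72, 10 of those 13 were higher than control, against 49.7% of all genes (median 0.19, against 0.00 over all genes). With WT 9 of 13 were higher, against 48% of all genes (median 0.12), and 0 reached 1.5-fold with either form. No test was made. CANX and FICD, described above, were among the higher ones, as was XBP1, at 0.28 with delta72 and 0.23 with WT. Lower with both forms were SYNPO (-0.38 with delta72, -0.43 with WT), TMEM120A (-0.20 and -0.25) and ALG12 (-0.20 and -0.20). PDIA6 was lower with WT only (-0.02). CANX, CALR, ERO1B, FICD, PDIA6 and XBP1 were already counted in the lists above. Of 13 further genes with an exact ERSE-II that passed the filter, 4 were higher with delta72 (median -0.06) and 5 with WT (median -0.06), HERPUD1 being the 1 at least 1.5-fold higher. Holding the element was thus accompanied by differences of either sign, and HYOU1 and SDF2L1, with ERSE-II, lay at 0.80 and 0.79 with delta72. XBP1 was chosen after its value was seen.

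The genes whose 3 array values most resembled those of the brightest HSPA5 probe set, by Euclidean distance after centring each gene on its own mean, were GADD45G, SYTL2, ODC1, SPOCK1 and H2AC15. Their distances ran from 0.132 to 0.204 in log2 units over the 3 arrays. ODC1, the first enzyme of polyamine synthesis, read 11.24 with delta72, 11.12 with WT and 9.97 on the control array. GADD45G, a growth arrest and stress gene, read 6.59 with delta72, 6.45 with WT and 5.59 on the control array. The brightest HSPA5 probe set differed by 0.26 between delta72 and WT, against 0.58 to 0.83 on its other probe sets. Genes nearest to those other probe sets were not sought and may differ. A likeness over 3 arrays is a description of these arrays.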

How the data were processed

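The authors deposited 1 table of log2 values for 49395 probe sets on 3 Affymetrix arrays, 1 per condition. Per the labels' protocols, the input to biotin labelling was 100 ng of RNA. Partek and Affymetrix Expression Console were used, per the submitters' processing notes, and how the values were normalized or background-corrected is not stated in them. The values were taken as log2 intensities because they lie between 2.07 and 14.56. The array medians (5.94 with delta72, 5.93 with WT, 5.95 on the control array) show a near-common scale, so a change common to the bulk of genes could not be seen.

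Probe sets with 1 gene symbol (44988 of 49293 that are not array controls) were used. Each gene was represented by its probe set of highest mean, and genes at or above the 40th percentile of mean intensity (log2 5.27) were kept. Log2 differences between arrays, fold changes, ranks and medians were computed with Python 3.11.15, numpy 2.4.6 and pandas 2.3.3. The counting was tested on simulated data at the 2-fold threshold only, with planted changes larger than that. It is thus no check on the counts at 1.5-fold. The number of arrays limits the precision. The 10 genes, the 8 other lists, the motifs and the named genes were chosen with earlier results of these data known. From each other list, the rule named the 3 genes with the largest delta72 minus control and the 2 with the largest delta72 minus WT difference, of which a part is described. The protein features that had been planned were not computed. The 7 alternative settings were 3 scalings, 2 choices of probe set and 2 filters.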

Additional observations from a re-analysis of the deposited data

How the results depend on the processing

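The median difference of the 10 genes kept its direction under all 7 alternatives, at 0.76 to 0.83 for delta72 minus control, 0.45 to 0.56 for WT minus control and 0.22 to 0.27 for delta72 minus WT. The 2 filters could not change any value of the 10 genes, since all 10 passed under each, so these settings are no check on them. The number of genes at least 1.5-fold above control with delta72 was 7 or 8. With WT it was 3 of 10 after a shift to a common median and after lowess correction, and 2 when the probe sets of each gene were replaced by their median, against 5 as reported. Between the forms it was 1, in place of 0, with the median over probe sets and without _s_at and _x_at probe sets, a setting that leaves 9 of the 10 genes since DNAJB9 has no other type. With the median over probe sets, HYOU1 turned to -0.035 for WT minus control and CRELD2 to -0.014 for delta72 minus WT. That median also takes in probe sets below the filter, for CRELD2 the dim probe set of opposite order. For HYOU1, 6 of its 9 probe sets were above the filter. Why probe sets of the same gene disagreed was not tested. Of the other values for single genes, 15 moved by more than the probe error and 190 did not. The 190 include values that could not move: those under the 2 filters, and those of genes with 1 probe set under the 2 choices of probe set. Of all genes at least 1.5-fold different, the share that was higher was 61.5% for delta72 and 54.9% for WT against control under the common median, in place of 72.0% and 68.1%. Between the forms it was 68.0% under lowess, in place of 81.5%. No paired analysis was possible because each group has 1 array.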
